A study of Mus musculus with 12 samples.

Results

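Before a messenger RNA leaves the nucleus its introns are removed by the spliceosome, a machine assembled from small nuclear ribonucleoprotein particles (snRNPs) and many further proteins. The genes described here encode 6 named families of that apparatus, namely the SR proteins (Srsf), the heterogeneous nuclear ribonucleoproteins (Hnrnp), snRNP proteins (Snrp), the SF3A and SF3B complexes (Sf3a, Sf3b) and the Prp factors (Prpf). They are the genes of the deposited expression table whose symbol starts with one of these prefixes and which are protein-coding. The rule used no measured value and found 54 of 9374 genes: 20 Hnrnp, 13 Prpf, 9 Srsf, 6 Sf3b, 4 Snrp and 2 Sf3a genes. All 54 were tested.

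RNA sequencing was done on neutrophils isolated from the blood of female mice, with 3 libraries in each of 4 groups. The groups were wild type given saline (WT-Saline), wild type given bacterial lipopolysaccharide at 0.5 mg/kg for 16 hours (WT-LPS), and the line named Hmgb1ΔMye given saline (KO-Saline) or the same dose of LPS (KO-LPS). ΔMye is a name used for a deletion in myeloid cells, and the sources used here name neither the driver of the deletion nor the age of the mice. Nothing in them ties the 3 libraries of each group to different mice, and the p-values accordingly reflect the spread among libraries only, part of which may be technical.

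SR proteins bind exonic enhancers and recruit the snRNPs to weak splice sites, whereas many hnRNP proteins bind silencers and pyrimidine-rich tracts and keep exons out. Sm proteins form the ring around most spliceosomal small nuclear RNAs, SF3A and SF3B hold the U2 snRNP on the branch point, and Prp factors serve the U4/U6.U5 tri-snRNP and its remodelling into the active enzyme. Mature blood neutrophils are short-lived cells with condensed nuclei and little RNA, and in other myeloid cells SR and hnRNP proteins are known to shape the splicing of inflammatory transcripts.

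Only 1 of the 54 genes passed the test for a change with LPS in wild-type libraries, against 11.7% of all genes. None of the 54 passed it in any of the other 5 comparisons. Of all genes, 3.35% passed with LPS in KO-labelled libraries and at most 0.0107% in the rest of these comparisons. The called member was Prpf38a, which encodes a subunit of the precatalytic spliceosome. It lies at chr4:108563172-108579336 on the minus strand (mm10), and no annotated exon on the opposite strand overlaps it. The RefSeq promoter window of Prpf38a is shown because it belongs to the called gene, and that of Hnrnpu because Hnrnpu had the most reads of the 54 and did not pass the test in any comparison. Each window runs from 250 bases before to 50 bases after the annotated start and is written 5′ to 3′ along the gene's strand (GRCm38.p6, minus strand for both), with CpG dinucleotides in capitals. The windows are chr4:108579287-108579586 and chr1:178337766-178338065.
Prpf38a: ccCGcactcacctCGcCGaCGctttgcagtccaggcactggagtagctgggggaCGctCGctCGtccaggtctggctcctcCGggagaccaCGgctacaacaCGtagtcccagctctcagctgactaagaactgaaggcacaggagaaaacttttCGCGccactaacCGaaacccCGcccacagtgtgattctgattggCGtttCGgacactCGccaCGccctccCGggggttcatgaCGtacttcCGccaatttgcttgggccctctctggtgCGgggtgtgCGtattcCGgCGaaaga
Hnrnpu: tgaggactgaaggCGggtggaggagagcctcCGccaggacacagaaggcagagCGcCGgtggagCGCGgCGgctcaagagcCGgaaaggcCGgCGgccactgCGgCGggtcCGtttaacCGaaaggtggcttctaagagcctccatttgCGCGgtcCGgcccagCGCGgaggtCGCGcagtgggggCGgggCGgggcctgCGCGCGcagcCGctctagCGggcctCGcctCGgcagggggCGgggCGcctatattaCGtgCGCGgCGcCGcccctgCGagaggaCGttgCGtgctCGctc
The Prpf38a window held 25 CpG dinucleotides at a GC content of 60.7%, and the Hnrnpu window held 41 at 72.7%.

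Such CpG-rich starts were usual among the members that could be matched. RefSeq windows were found for 47 of the 54 genes, 64 windows in all, and their median GC content was 61.0%, against 60.7% for the windows of all protein-coding genes in the table. Their median ratio of observed to expected CpG was 0.953, against 0.749 for those genes and 0.384 over all 32851 windows. The letters CCGGAAG, bound by ETS factors, occurred on either strand in 32.8% of the members' windows, 18.2% of those of the table's protein-coding genes and 8.86% of all windows. The letters CCAAT were found in 51.6%, 36.3% and 37.4%. A pattern of the NF-kB type (GGGA, any 4 bases, then CC) was found in 37.5%, 26.5% and 20.7%, and an interferon-type pattern (GAAA, any 2 bases, then GAAA) in 1.56%, 3.35% and 3.44%. Neither of the last pair of patterns was in the Prpf38a or the Hnrnpu window. All of these are descriptions of letters in a window, and genes with several windows count more than once.

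The libraries were shallow, which sets how small a change could be seen. They held 399702 to 526757 reads in the table, and a count of 0 allowed a level of up to 5.58 to 8.0 CPM (reads divided by library size), with 3 reads in a library as the floor and counting error alone considered. The 54 genes took 14390 reads, 0.269% of all. Their median was 12.38 reads per library, against 11.42 for protein-coding genes, and 33 of them had a mean of at least 10 reads. Hnrnpu was highest at 140.0 reads and Prpf4, a tri-snRNP protein, lowest at 1.08. In 15 of the 54 at least 1 library held 0 reads.

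Several facts of the whole set bear on the values below. Hmgb1 was not lower in libraries with the Hmgb1ΔMye label: with saline it had 8, 17 and 12 reads in wild type and 14, 10 and 25 under that label, and with LPS 14, 15 and 34 against 6, 30 and 16, so these libraries are called KO-labelled. All 10 neutrophil markers looked for were measured, and with LPS in wild type 5 of them were called higher and 3 lower. The summed level of 6 granule genes of immature neutrophils (Ngp, Camp, Ltf, Lcn2, Chil3 and Itgb2l) was 395 to 616 CPM in WT-Saline and 9408 to 14108 CPM in WT-LPS. In KO-Saline it was 788 to 1528 CPM, and in KO-LPS 1422 to 13244 CPM, the lowest value being that of KO-LPS replicate 1. That library carried a weight of 0.387 when limma weighted libraries by how well they matched their group, the lowest of the 12. KO-Saline replicate 3 had the next lowest weight, 0.632, and the highest share of genes at 0 reads, 19.19% against 6.93% to 12.62% in the other 11. A pair of measured platelet genes (Gp1ba and Clec1b, of 5 looked for) summed to 482 to 728 CPM in WT-Saline and 159 to 243 CPM in WT-LPS, and 3 dendritic cell genes (Clec9a, Xcr1 and Itgax, of 5) to 201 to 326 and 5.58 to 45.0 CPM. Cd79a, the only measured gene of 4 B cell markers, was called higher with LPS under both genotype labels, at 9.68 to 29.6 CPM with saline and 101 to 134 CPM with LPS in wild type, and 7.30 to 28.9 and 34.7 to 104 CPM in KO-labelled libraries. The part of these cells in the members' values was not tested. In RNA from bulk cells, fewer cells of a type and less RNA per cell cannot be told apart.

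The strand on which reads were counted also bears on the members. The library kit marks the strand of origin, and the strand setting of the counting is not given in the sources used here. Of the 54 genes, 20 have exons that overlap those of another gene transcribed the other way, against 36.8% of all genes with an annotated position. For 11 of the 20 such a partner was itself measured, in 12 pairings. The partner had more reads than the member in 10 of the 12 and more reads per kilobase of exon in 11. Hnrnpk, an abundant nuclear and cytoplasmic RNA-binding protein gene, had 52.92 reads per library and its partner Rmi1 361.83. Hnrnph3 had 9.58 reads against 350.42 for Rufy2, and Srsf4 11.42 against 299.75 for the long non-coding gene Gm12992. Hnrnpu, with 140.0 reads, exceeded Cox20, with 54.92, by reads but not per kilobase. Over the whole table, 167 of 229 long non-coding genes (72.9%) with a measured protein-coding gene opposite had more reads than that gene. Values of the 20 overlapping genes are therefore uncertain, and reads of a gene and of its partner could not be separated. Counting on the opposite strand would bear on every gene. The other 34 members, Prpf38a among them, are thus not free of the strand doubt, and whether it applies was not tested. Pseudogene copies add a second doubt for 15 members, with 35 annotated copies for Hnrnpa3, 9 for Hnrnpa1 and 6 for Hnrnpf.

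**Figure D1:**
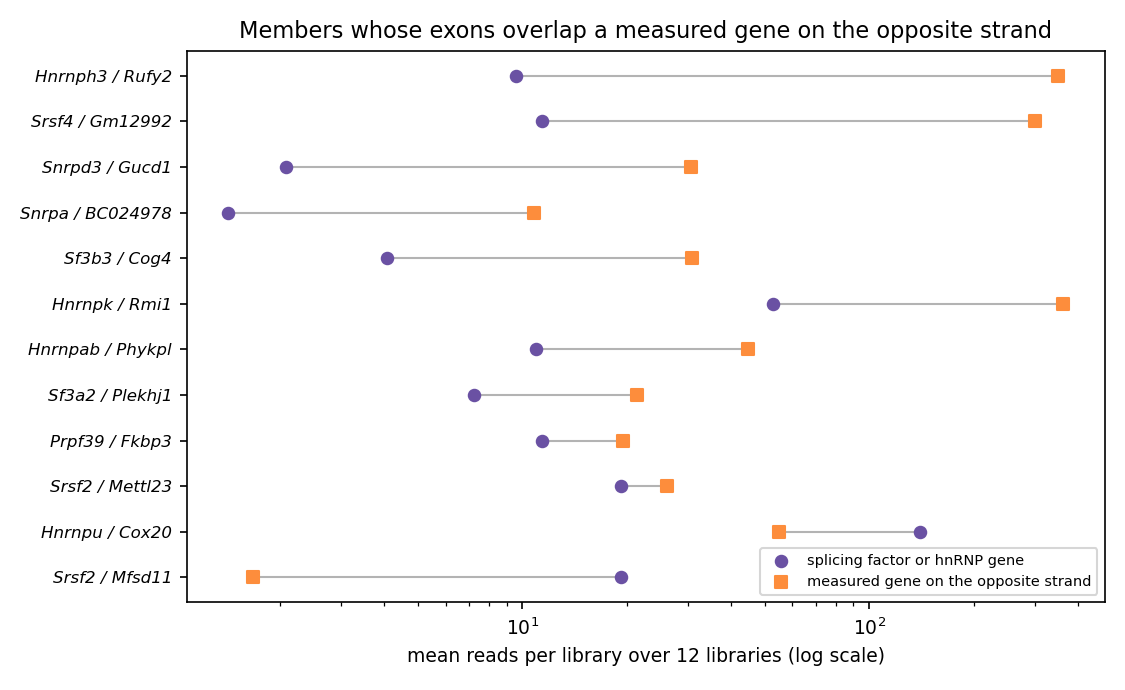
Mean reads per library over 12 libraries (log scale) for each member whose exons overlap a measured gene on the opposite strand (circles) and for that gene (squares), one line per pairing. The square lies to the right of the circle in 10 of the 12 pairings.

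Per kilobase of exon, the 5 highest mean levels over all libraries were 27.0 CPM per kilobase for Hnrnpu, a nuclear matrix protein, 25.5 for Hnrnpm, 24.2 for Sf3b2, 21.4 for Hnrnpul1 and 20.3 for Hnrnph1. The median of the 54 genes was 5.91 CPM per kilobase, and the lowest level, 0.18, was that of Hnrnpr, so the Hnrnp genes spanned the whole range. Of the 6 Sf3b genes 4 lay below the median. The exons of Hnrnpu and Sf3b2 overlap those of a gene on the opposite strand, and Hnrnpm overlaps another annotated gene, March2, on its own strand.

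In wild-type libraries, LPS went with a call for 1 of the 54 genes (1.85%), while 11.7% of all 9374 genes were called. The call was for a lower level, against 4.96% of all genes called lower (465 genes, with 630 called higher). Among genes with a mean of at least 10 reads, which were better measured, the share called was 19.1% over the table and 3.03% over the 33 members, again Prpf38a alone. At an unadjusted p under 0.05 the members numbered 10, of which 3 were higher and 7 lower, against 24.4% of all genes. The median log2 fold change of the 54 was -0.19, against 0.07 for all genes. Of the 54, 34 were below 0, against 4461 of all 9374 genes. A gene's 3 WT-LPS libraries lay wholly outside the range of its 3 WT-Saline libraries in 8 members (14.8%), against 30.8% of all genes.

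Prpf38a fell with LPS in wild-type libraries. It had 29, 18 and 31 reads in WT-Saline and 5, 5 and 10 in WT-LPS, or 55.3 ± 16.2 and 13.7 ± 4.31 CPM (SD, n = 3). The groups did not overlap, the highest WT-LPS value being 18.6 CPM and the lowest WT-Saline value 38.0 CPM. The log2 fold change was -1.93 ± 0.61 (SE, 95% interval -3.18 to -0.68), with an adjusted p of 0.0356. In KO-labelled libraries it had 18, 14 and 4 reads with saline and 10, 8 and 18 with LPS. Those groups overlapped, at 29.1 ± 18.8 and 28.3 ± 9.54 CPM, and the log2 fold change was 0.16 ± 0.61 (adjusted p = 0.929). The difference between these responses was 2.09 ± 0.86 on the log2 scale, and its adjusted p was 0.792, so the responses were not shown to differ. The call was lost when any of the 6 wild-type libraries was left out (adjusted p from 0.0526 to 0.141) and without the mean-variance trend (0.0718), and over all 21 alternatives the adjusted p ran from 0.0135 to 0.141.

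**Figure D2:**
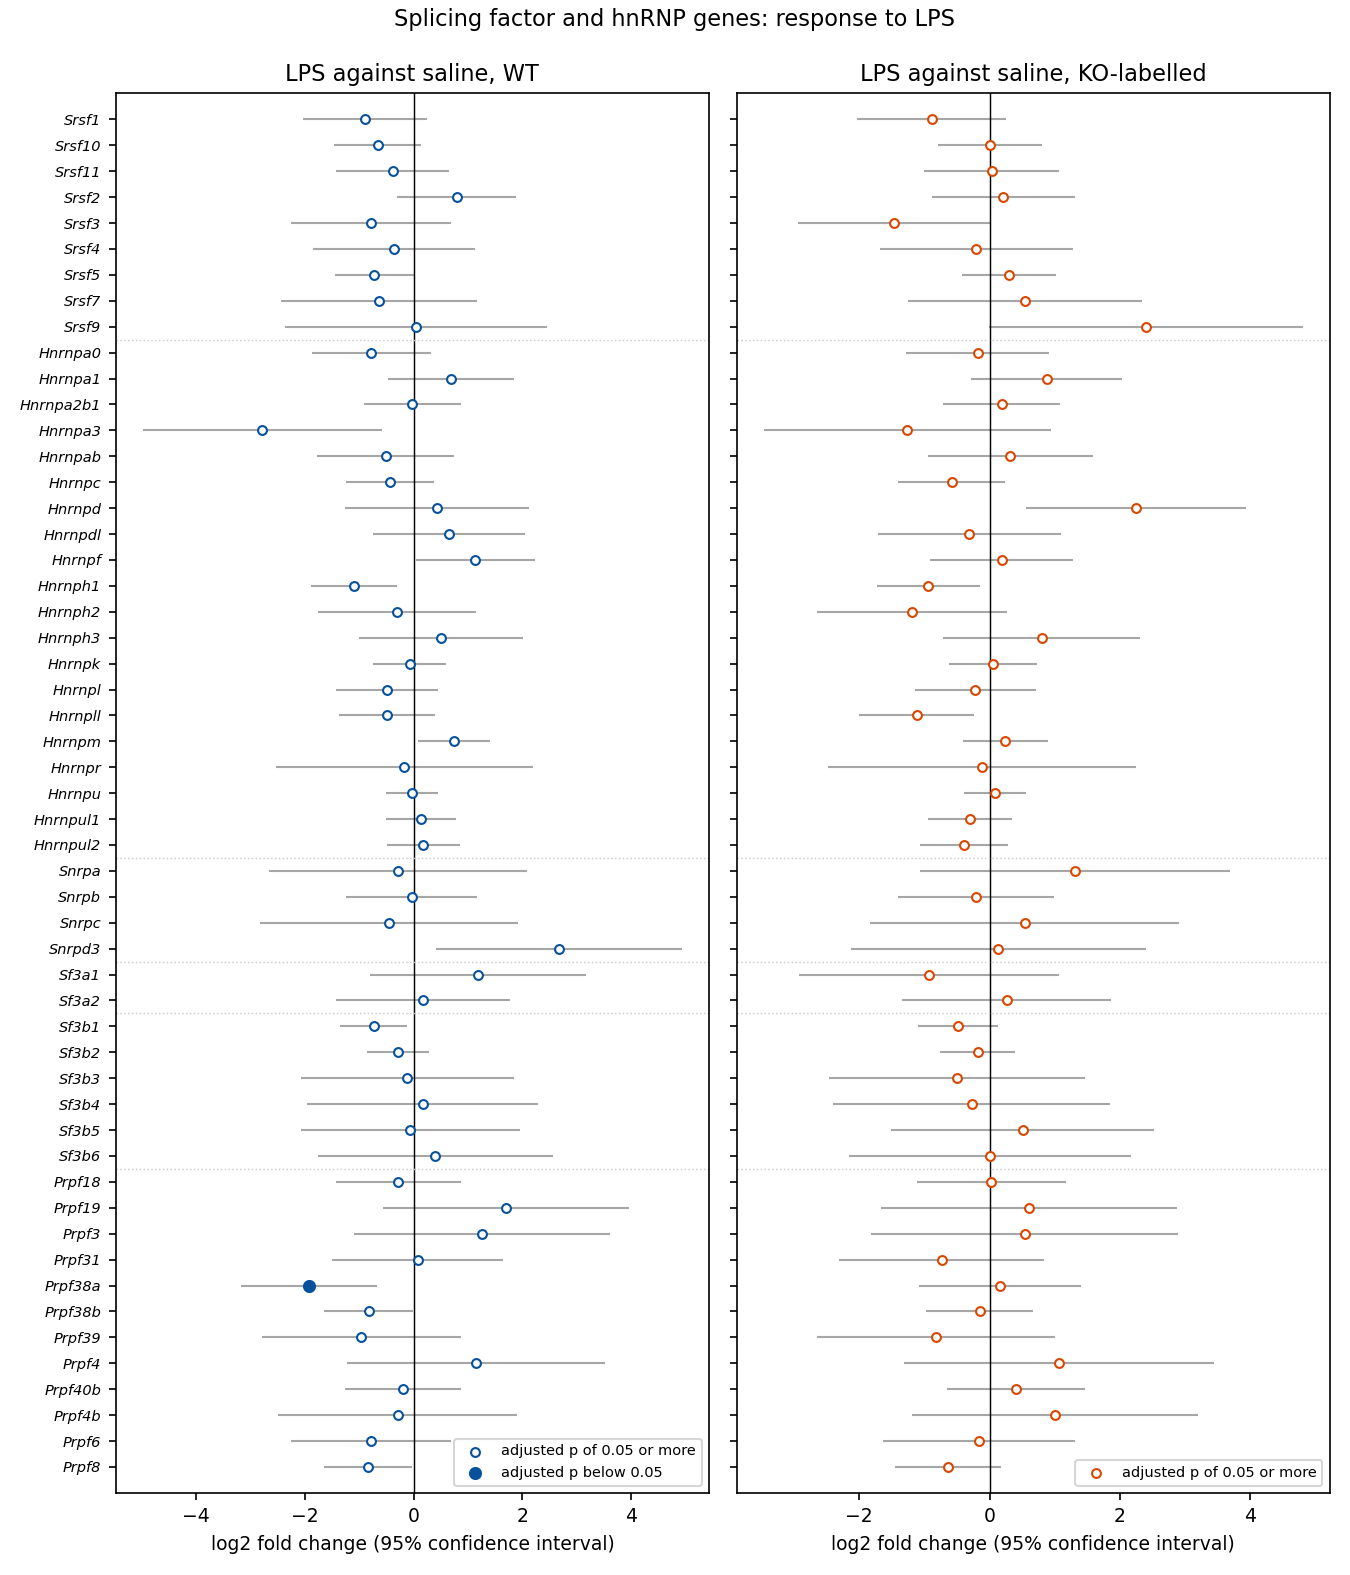
Log2 fold change with LPS for the splicing factor and hnRNP genes listed, in wild-type (left) and KO-labelled libraries (right), with 95% confidence intervals as lines and families separated by dotted lines. Prpf38a in wild type, at -1.93, is the only filled point (adjusted p below 0.05), and most intervals span 0.

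Among the hnRNP genes, Hnrnph1 and Hnrnpa3 came nearest to a call in wild type. Hnrnph1 encodes a protein that binds G-rich tracts. It had 66, 84 and 98 reads in WT-Saline and 53, 22 and 48 in WT-LPS, or 173 ± 11.97 and 87.1 ± 39.7 CPM (SD, n = 3), and the groups did not overlap. Its log2 fold change was -1.09 ± 0.39 with an adjusted p of 0.0660. In KO-labelled libraries the reads were 40, 71 and 60 with saline and 48, 28 and 17 with LPS, with a log2 fold change of -0.94 ± 0.39 (adjusted p = 0.196). KO-LPS replicate 1 lay inside the KO-Saline range. Without that library Hnrnph1 passed the test in both backgrounds, with an adjusted p of 0.0178 in wild type and 0.00902 in KO-labelled libraries. It also passed in wild type without WT-LPS replicate 1 or KO-LPS replicate 3. Over all alternatives its wild-type adjusted p ran from 0.0170 to 0.332.

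Hnrnpa3, a relative of the splicing repressor Hnrnpa1, had 5, 9 and 20 reads in WT-Saline and 4, 1 and 0 in WT-LPS. The groups did not overlap, but the numbers are small and 35 pseudogene copies are annotated. The log2 fold change was -2.78 ± 1.08 (adjusted p = 0.0965). In KO-labelled libraries the reads were 8, 5 and 6 with saline and 9, 0 and 4 with LPS, which overlap (log2 fold change -1.27 ± 1.08, adjusted p = 0.600). The wild-type value was -1.90 without WT-LPS replicate 3 (adjusted p = 0.367), the library at 0 reads, and -3.66 without WT-LPS replicate 1 (0.0548). It passed with voom precision weights (0.0453) and with library weights (0.0317).

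Hnrnpu had the narrowest interval of the 54. In wild type it had 124, 135 and 159 reads with saline and 114, 114 and 195 with LPS, and in KO-labelled libraries 135, 158 and 114 and then 112, 152 and 168. Its log2 fold change with LPS was -0.04 ± 0.23 in wild type (95% interval -0.51 to 0.44) and 0.09 ± 0.23 in KO-labelled libraries (-0.39 to 0.56). The 4 groups overlapped throughout. In wild type the interval lay within 1 log2 unit of 0 for 6 members, Hnrnpu, Hnrnpk, Hnrnpul1, Hnrnpul2, Hnrnpa2b1 and Sf3b2, against 11.7% of all genes. For the rest of the 54 the interval reached a change of 2-fold in at least 1 direction, and a change of that size was not excluded by it.

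Hnrnpm, which also regulates splicing of inflammatory transcripts in macrophages, had 25, 76 and 105 reads in WT-Saline and 66, 120 and 122 in WT-LPS. WT-Saline replicate 1 was far below the other 11 libraries and the WT groups overlapped (log2 fold change 0.74 ± 0.32, adjusted p = 0.146). The KO-labelled libraries gave 87, 88 and 87 reads with saline and 85, 109 and 117 with LPS.

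The remaining hnRNP genes gave fitted changes in both directions, and none was called. Hnrnpf had 10, 5 and 13 reads with saline and 27, 18 and 16 with LPS in wild type, without overlap (log2 fold change 1.13 ± 0.54, adjusted p = 0.189), but it has 6 pseudogene copies and a partner on the opposite strand. Hnrnpa1, the archetypal exon repressor, had 13, 6 and 40 against 14, 28 and 36 reads, with the saline libraries spanning the LPS ones (log2 fold change 0.68 ± 0.57, adjusted p = 0.515). Hnrnpc, which binds uridine tracts and guards against cryptic exons, had 35, 38 and 30 against 38, 17 and 25 reads (log2 fold change -0.44 ± 0.40, adjusted p = 0.561). Its KO-labelled reads were 29, 43 and 42 with saline and 30, 16 and 31 with LPS (log2 fold change -0.59 ± 0.40, adjusted p = 0.484), again overlapping. Hnrnpk had 48, 60 and 76 against 58, 51 and 65 reads in wild type (log2 fold change -0.07 ± 0.33, adjusted p = 0.924), a narrow interval from -0.75 to 0.60. Hnrnpul2 had 37, 41 and 40 reads with saline and 29, 28 and 32 with LPS in KO-labelled libraries, without overlap in CPM, and a log2 fold change of -0.39 ± 0.33 (adjusted p = 0.590).

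**Figure D3:**
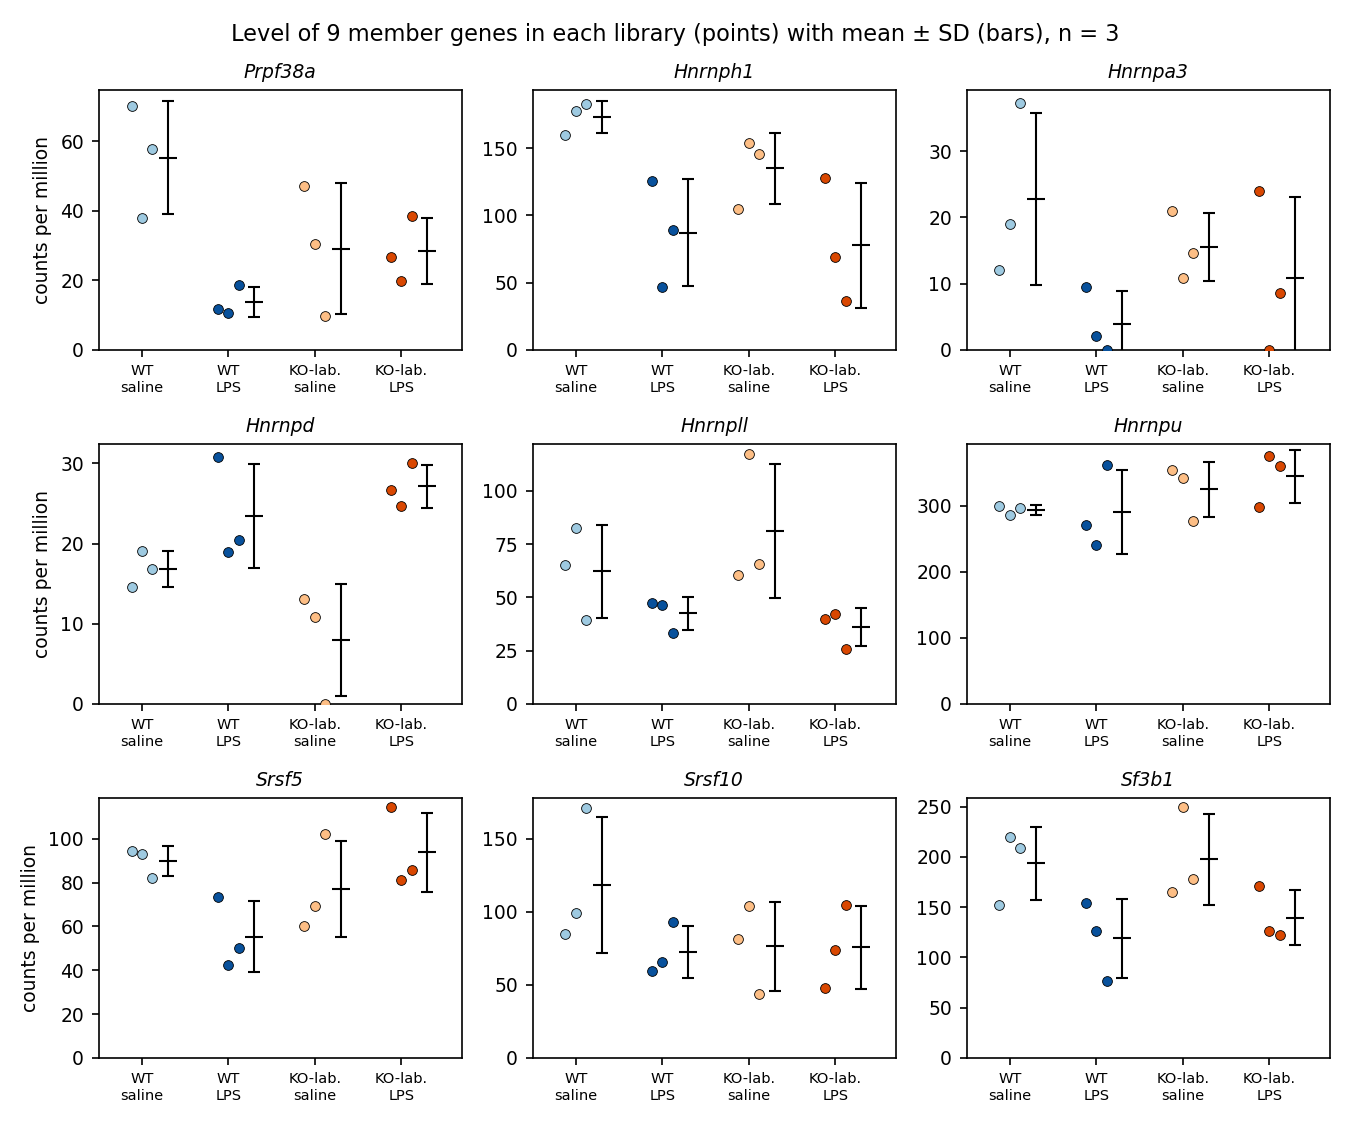
Level in CPM of 9 members in each of the 12 libraries (points) with mean ± SD (bars, n = 3). Prpf38a and Hnrnph1 show no overlap between the WT-Saline and WT-LPS points, and Hnrnpu lies between 240 and 375 CPM in all 12 libraries.

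Of the 9 SR protein genes none passed the test in wild type (limma), against 11.7% of all genes. At an unadjusted p under 0.05 there was 1, against 24.4% of all genes. The log2 fold change was below 0 in 7 of the 9, against 4461 of all 9374 genes. Its median was -0.65, against 0.07 for all genes. Srsf5 had 39, 44 and 44 reads in WT-Saline and 31, 20 and 27 in WT-LPS, or 89.8 ± 6.82 and 55.3 ± 16.3 CPM (SD, n = 3), which did not overlap. Its log2 fold change was -0.73 ± 0.35 (adjusted p = 0.202). In KO-labelled libraries the reads were 23, 32 and 42 with saline and 43, 33 and 40 with LPS (log2 fold change 0.30 ± 0.35, adjusted p = 0.732). Srsf10, an SR protein known as a repressor when dephosphorylated, had 35, 47 and 92 reads in WT-Saline and 25, 31 and 50 in WT-LPS. WT-Saline replicate 3 was high and the groups overlapped (log2 fold change -0.66 ± 0.39, adjusted p = 0.319). In KO-labelled libraries its log2 fold change was 0.00 ± 0.39, and its sign turned with the scaling.

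Other SR genes pointed in different directions, and none was called. Srsf1, the founding member of the family, had 9, 34 and 28 reads with saline and 9, 16 and 9 with LPS in wild type, and 15, 20 and 17 against 11, 5 and 13 in KO-labelled libraries, where the groups did not overlap. Its log2 fold changes were -0.90 ± 0.56 and -0.89 ± 0.56 (adjusted p = 0.352 and 0.443). Srsf3, the smallest SR protein, had 14, 12 and 9 reads with saline and 3, 3 and 6 with LPS in KO-labelled libraries (log2 fold change -1.47 ± 0.72, adjusted p = 0.289), and 12, 8 and 10 against 5, 3 and 11 in wild type. Srsf2, whose exons overlap those of Mettl23 and Mfsd11, had values on the other side of 0 in wild type, with 21, 11 and 9 reads with saline and 16, 28 and 26 with LPS (log2 fold change 0.79 ± 0.53, adjusted p = 0.403). Srsf9 had 2, 1 and 0 reads with saline and 5, 7 and 6 with LPS in KO-labelled libraries, a ratio of pooled reads of 6.03 (95% counting interval 1.76 to 32.0, adjusted p = 0.293). Its wild-type reads were 3, 5 and 0 with saline and 8, 2 and 0 with LPS, so both groups held a library at 0. Srsf1 overlaps Gm11508 on the opposite strand, and the other genes of this paragraph apart from Srsf2 overlap none.

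The Srsf genes can also be read as a sum, which rests on more reads than any of them and was not tested. The 9 genes summed to 375, 457 and 417 CPM in WT-Saline and 306, 299 and 273 CPM in WT-LPS. Every WT-LPS library lay below every WT-Saline library, and the ratio of the means was 0.703 (0.670 to 0.739 over the other scalings and with any 1 of these libraries left out). Over the whole table these groups did not overlap in 30.8% of single genes, with WT-LPS the lower group in 14.3%. In KO-labelled libraries the sums were 304, 382 and 379 CPM with saline and 333, 345 and 397 CPM with LPS, which overlap, with a ratio of 1.01. The KO-LPS sums all lay above the WT-LPS sums in CPM, and KO-LPS was likewise wholly higher in 444 of all 9374 single genes. Without Srsf10, which took 24.8% of the family's reads, the wild-type groups just overlapped, the highest WT-LPS sum being 246.5 CPM and the lowest WT-Saline sum 245.9 CPM.

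The 13 Prp genes had a like pattern of sums. In wild type they came to 503, 404 and 458 CPM with saline and 282, 283 and 392 CPM with LPS, without overlap. WT-LPS was likewise wholly lower in 14.3% of all single genes. In KO-labelled libraries they came to 367, 325 and 409 CPM and to 379, 360 and 309 CPM, which overlap. The ratios of means were 0.701 and 0.951. Without Prpf8, the protein at the heart of the active spliceosome, which took 21.8% of the reads, the wild-type ranges met (213 to 329 CPM with LPS, 319 to 433 CPM with saline). Prpf8 itself had 29, 40 and 74 reads in WT-Saline and 29, 15 and 34 in WT-LPS (log2 fold change -0.84 ± 0.40, adjusted p = 0.187). Prpf38b, a relative of Prpf38a, had 29, 35 and 48 against 28, 11 and 28 reads (log2 fold change -0.83 ± 0.40, adjusted p = 0.201). In CPM neither overlapped between the groups.

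The sums of the other 4 families overlapped between saline and LPS in wild type. The ratios of their means were 0.743 for Sf3b, 0.956 for Hnrnp, 1.17 for Snrp and 1.38 for Sf3a.

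**Figure D4:**
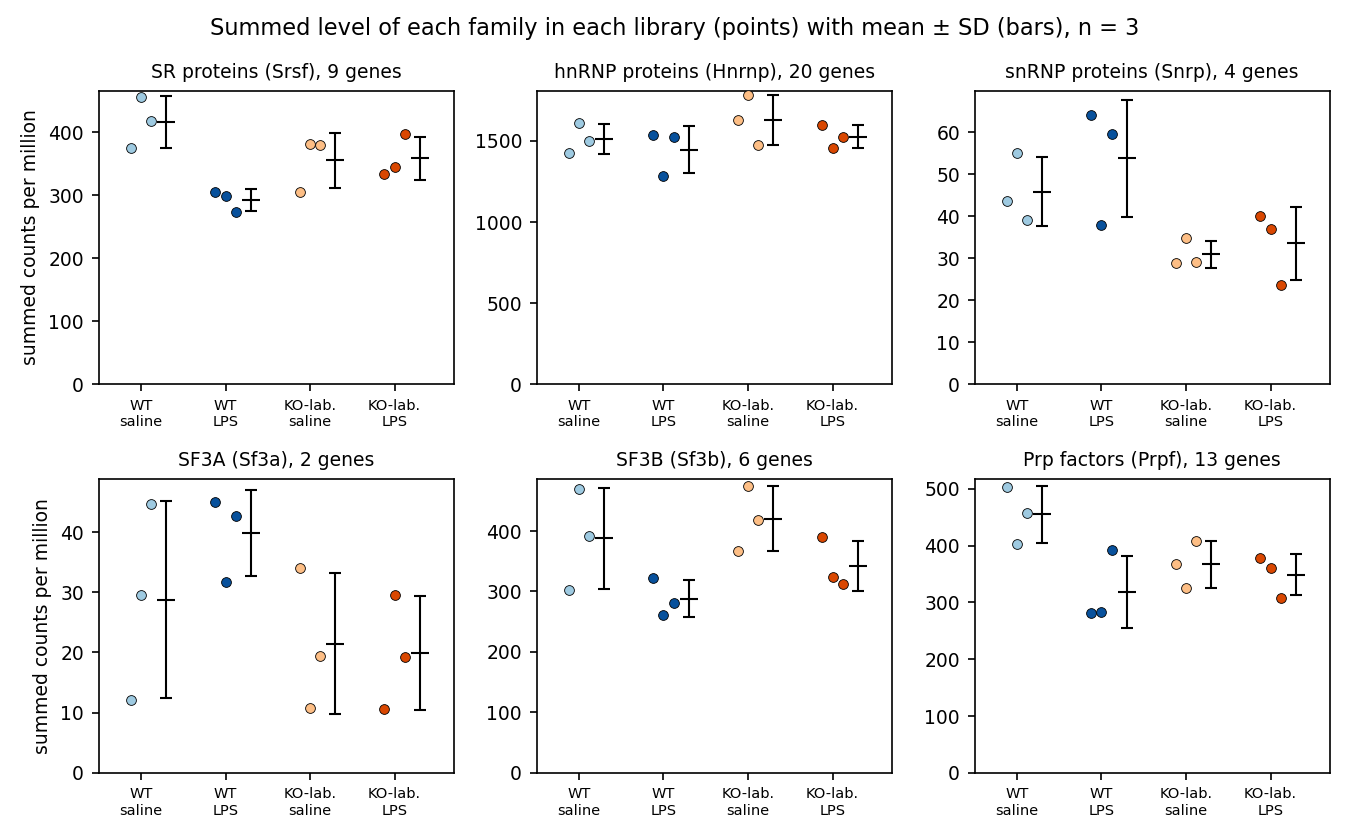
Summed level in CPM of each of the 6 families in each library (points) with mean ± SD (bars, n = 3). WT-LPS lies below WT-Saline without overlap for the Srsf family (273 to 306 against 375 to 457) and the Prpf family (282 to 392 against 404 to 503), and the hnRNP sums overlap in all groups. Of all single genes, 14.3% had WT-LPS below WT-Saline without overlap.

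No member gene of the branch-point complexes or of the snRNP proteins was called. Sf3b1, the SF3B subunit that contacts the branch point, had 63, 104 and 112 reads in WT-Saline and 65, 60 and 41 in WT-LPS (log2 fold change -0.74 ± 0.30, adjusted p = 0.114), and in CPM the groups overlapped narrowly, at 152 to 220 and 76.2 to 154. In KO-labelled libraries it had 63, 115 and 73 reads with saline and 64, 51 and 57 with LPS (log2 fold change -0.49 ± 0.30, adjusted p = 0.429). Sf3b2, its partner in the complex, had log2 fold changes of -0.29 ± 0.28 and -0.18 ± 0.28. The other 4 SF3B genes and both SF3A genes had means of 2.50 to 7.25 reads, and none of these was called.

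Snrpd3, an Sm ring protein, had the highest fitted fold change of the members in wild type, on very few reads. It had 0, 0 and 3 reads in WT-Saline and 5, 6 and 6 in WT-LPS. Pooled over libraries, the reads gave a 5.62-fold ratio of LPS to saline, counting error alone giving a 95% interval from 1.63 to 29.9, and the adjusted p was 0.124. KO-labelled libraries had 0, 0 and 3 reads with saline and 1, 1 and 0 with LPS. Its exons overlap those of Gucd1 on the opposite strand, which had 30.67 reads per library and rose with LPS in wild type (log2 fold change 2.51, adjusted p = 0.000423). The part of Gucd1 reads in the Snrpd3 values was not tested. The other Sm gene, Snrpb, had 12, 19 and 18 reads in WT-Saline and 20, 8 and 24 in WT-LPS (log2 fold change -0.04 ± 0.59). Snrpa and Snrpc, both of the U1 snRNP, had 1.42 and 2.17 reads per library and were not called.

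In KO-labelled libraries LPS went with no call among the 54 genes by limma, with 4 at an unadjusted p under 0.05 (17.2% of all genes), while 3.35% of all genes were called. The median log2 fold change was 0.02, against 0.09 for all genes. The groups did not overlap in 7 members (13.0%), against 17.6% of all genes, and the interval lay within 1 log2 unit of 0 in 7, against 14.2%. Hnrnpd, known as AUF1, which speeds the decay of AU-rich inflammatory messengers, had the smallest p. It had 5, 5 and 0 reads with saline and 10, 10 and 14 with LPS, without overlap, a log2 fold change of 2.25 ± 0.82 and an adjusted p of 0.142. The library at 0 was KO-Saline replicate 3, and without it the log2 fold change was 1.11 (adjusted p = 0.488). In wild type the reads were 6, 9 and 9 with saline and 13, 9 and 11 with LPS (log2 fold change 0.43 ± 0.82). Hnrnpll, known for the splicing of CD45 in lymphocytes, had 23, 54 and 27 reads with saline and 15, 17 and 12 with LPS, also without overlap (log2 fold change -1.12 ± 0.43, adjusted p = 0.167). In wild type it had 27, 39 and 21 reads with saline and 20, 22 and 18 with LPS (log2 fold change -0.50 ± 0.43). The number of genes called over the table, 314, depended on single libraries. Leaving out KO-LPS replicate 1 gave 1076, replicate 2 of that group 32 and replicate 3 of it 47, and leaving out KO-Saline replicates 1, 2 and 3 gave 206, 129 and 108. Among the members the number was 1 (Hnrnph1) in the first of these cases and 0 when any other library was left out.

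**Figure D5:**
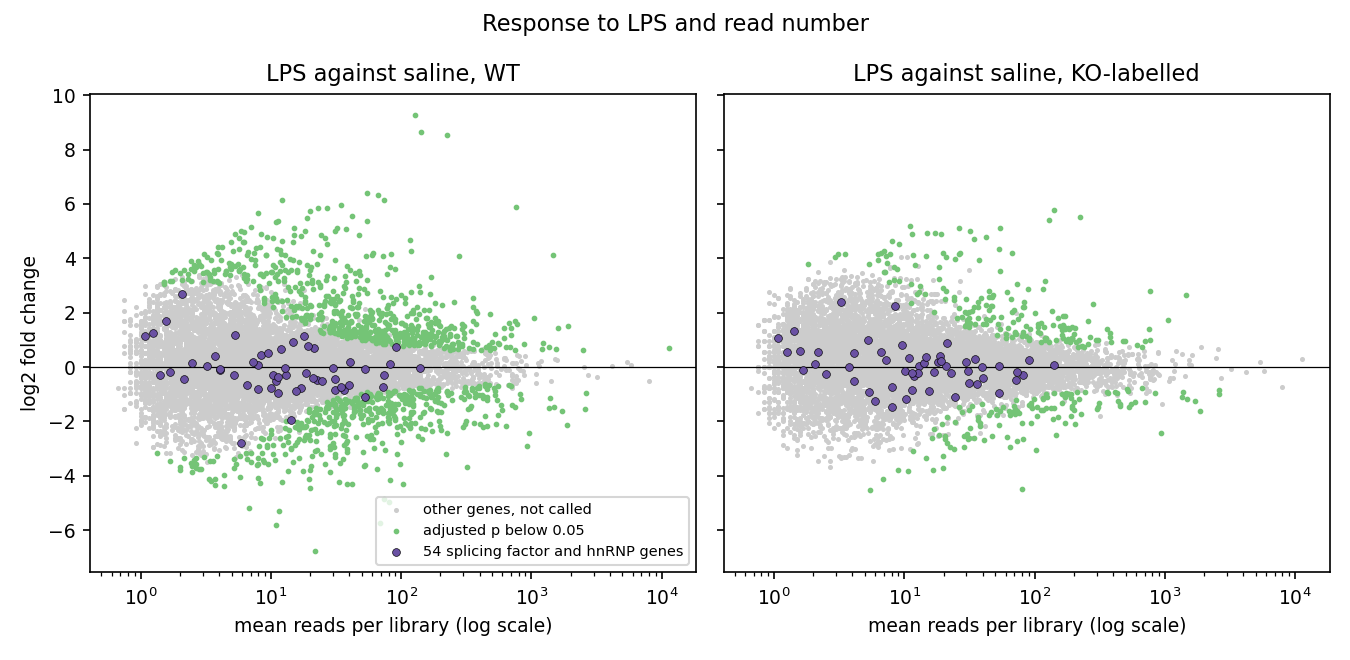
Log2 fold change with LPS against mean reads per library (log scale) for all 9374 genes, in wild-type (left) and KO-labelled libraries (right). The 54 members (purple) lie mostly among genes that were not called (grey), between -2.78 and 2.67 on the log2 scale in wild type, while called genes (green) reach 9.26.

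Between genotype labels none of the 54 genes was called by limma in saline, in LPS or averaged over both, and the table as a whole had 0.0107%, 0.0% and 0.0107% of genes called. At an unadjusted p under 0.05 there were 2, 3 and 2 members, against 6.86%, 5.02% and 5.65% of all genes. In saline the smallest p belonged to Hnrnpm (log2 difference, KO-labelled minus wild type, 0.75 ± 0.32, adjusted p = 0.666), and without the low WT-Saline replicate 1 the difference was 0.24. It was followed by Hnrnpf, a G-tract binder with a partner on the opposite strand, with 10, 5 and 13 reads in WT-Saline and 11, 37 and 14 in KO-Saline (1.18 ± 0.54, adjusted p = 0.674). In LPS the smallest p belonged to Srsf5 (0.78 ± 0.35, adjusted p = 0.949). Prpf31, a tri-snRNP protein, had 6, 17 and 14 reads in WT-LPS and 5, 2 and 2 in KO-LPS (-1.66 ± 0.77, adjusted p = 0.949), and its exons overlap Gm15927 on the opposite strand. In these comparisons the interval lay within 1 log2 unit of 0 for 8 members in saline and 9 in LPS, against 19.4% of all genes in each. Hnrnpu, Hnrnpk, Sf3b1 and Sf3b2 were among them in both.

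The difference in LPS response between genotype labels was called for none of the 54 genes by limma, against 0.0% of the table, with 2 members at an unadjusted p under 0.05 against 5.97% of all genes. These were Prpf38a (described above) and Srsf5, with a difference of responses of 1.02 ± 0.50 on the log2 scale (adjusted p = 0.831). The standard error of such a difference had a median of 0.87 over the members, and 2 members had an interval within 1 log2 unit of 0, against 6.84% of all genes.

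Splicing genes outside the 6 families were looked at from 3 lists. Of 57 measured genes of 72 in a list of other spliceosome proteins, 2 rose with LPS in wild type and none fell, 3.51% against 11.7% of all genes. They were Ddx39a and Usp39. Ddx39a, an RNA helicase of messenger export, had 8116 to 16072 reads in every library (log2 fold change 0.71 ± 0.22, adjusted p = 0.0349). Its mean of 11344 reads was the highest of all 9374 genes. Its exons overlap 895 bases of Adgre5 exons on the opposite strand, and the part of Adgre5 reads in its values was not tested. Usp39, a tri-snRNP factor, had 0 reads in every WT-Saline library and 6, 2 and 5 in WT-LPS. No fold is given for Usp39 for that reason. Of 45 measured genes of 46 in a list of regulators of splice site choice, 2 rose and 1 fell (6.67%). Ptbp1, the polypyrimidine tract binding protein that represses exons, had 8, 5 and 19 reads in WT-Saline and 33, 25 and 45 in WT-LPS, without overlap, a log2 fold change of 1.79 ± 0.57 and an adjusted p of 0.0388. Luc7l2, a U1-associated protein, had 38, 58 and 92 reads in WT-Saline against 33, 10 and 45 in WT-LPS (log2 fold change -1.25 ± 0.41, adjusted p = 0.0476). Ptbp1 and Luc7l2 both overlap genes on the opposite strand.

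Of the 8 kinases that phosphorylate SR proteins, Clk3 alone was called (12.5%, against 11.7% of all genes), with 41, 51 and 53 reads in WT-Saline and 95, 73 and 97 in WT-LPS, without overlap (log2 fold change 0.85 ± 0.26, adjusted p = 0.0320). It too has a partner on the opposite strand, Edc3. KO-labelled libraries had 74, 73 and 68 reads with saline and 76, 83 and 88 with LPS. No gene of the 3 lists was called in any of the other 5 comparisons by limma, where 0 to 6 genes of a list had an unadjusted p under 0.05. Of all genes, 3.35% were called with LPS in KO-labelled libraries and at most 0.0107% in the rest of these comparisons. An unadjusted p under 0.05 was found for 17.2% of all genes in the former and 5.02% to 6.86% in the latter. The calls of the genes named here from these lists were each lost when certain single libraries were left out, with adjusted p up to 0.156 for Clk3 (any WT-Saline library, WT-LPS replicates 1 and 3), 0.177 for Ptbp1 (WT-Saline replicates 1 and 2, any WT-LPS library) and 0.15 for Usp39 (any wild-type library). Without the mean-variance trend, Clk3 (adjusted p = 0.103), Ddx39a (0.184), Ptbp1 (0.0758) and Luc7l2 (0.191) were lost as well. With single libraries left out, Ddx39a reached 0.147 (any wild-type library, KO-Saline replicates 2 and 3), and Luc7l2 reached 0.369 (any saline library, WT-LPS replicate 2, KO-LPS replicate 3). Clk1, a kinase whose own splicing responds to SR protein activity, had 96, 104 and 90 reads with saline and 60, 63 and 63 with LPS in wild type, and 106, 88 and 52 against 65, 25 and 32 in KO-labelled libraries (KO-labelled log2 fold change -1.05 ± 0.34, adjusted p = 0.0925). In that comparison Clk1 passed with library weights (adjusted p = 0.00167) and without KO-LPS replicate 1 (0.000535). Pspc1, a paraspeckle protein from the list of regulators, had 18, 9 and 17 reads with saline and 11, 0 and 1 with LPS there and did not pass (log2 fold change -2.82, adjusted p = 0.0573), but did with a robust prior (0.0440), with library weights (0.00155) and without KO-LPS replicate 1 (0.000153).

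The genes of the table whose log2 level went most closely with the mean log2 level of the 9 SR genes over the 12 libraries were Cul3 (Pearson r = 0.855), Phc1 (r = 0.853) and B3gnt5 (r = 0.837), named as a description since they are the highest of 9374. The 12 points share groups and depth, and Phc1 and B3gnt5 had 6.58 and 2.42 reads per library. The SR mean itself was 4.995 ± 0.34 with saline and 4.59 ± 0.36 with LPS in wild type, and 4.76 ± 0.16 and 4.87 ± 0.06 in KO-labelled libraries (log2 scale, SD, n = 3). On this scale, where each gene counts alike, the wild-type groups overlapped, at 4.66 to 5.33 with saline and 4.20 to 4.91 with LPS.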

How the data were processed

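Neutrophil RNA of 12 libraries was measured in 4 groups of 3. The authors deposited log2 values for 9374 genes by NCBI Gene ID. These log2 values have the form log2 CPM with 0.5 reads added, since whole reads came back within 0.0001 for 100.0% of values. The build was mm10, per the submitters' processing notes. The aligner, the counter with its strand setting and the gene filter were not given in the sources used here. Libraries were prepared with the Tecan Universal Plus kit, per the labels' protocols.

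Symbols came from RefSeq for 9372 IDs, and positions and exon overlaps from GENCODE M21 for 9291. Pseudogene copies were matched with BLAST 2.17.0 (identity of 95%, at least 200 bases). Promoter windows are those of RefSeq (GRCm38.p6). The deposited values were tested with limma 3.58.1 (R 4.3.3): 4 group means over all 12 libraries, with a mean-variance trend, two-sided, and p-values adjusted by Benjamini-Hochberg over all 9374 genes, called under 0.05. The procedure was tested on simulated data. Every adjusted p in the text is from limma, ± after a log2 value is its standard error, and ± after CPM is an SD. Adding 0.5 reads shrinks the log2 fold changes of genes with few reads.

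Members, lists, comparisons and the naming rule were chosen with earlier results of these data known. The rule named Hmgb1, members called, the 2 members with the most reads of each family, the 3 members of smallest p in each comparison with fewer than 3 calls, up to 4 called genes of each list of other splicing genes (or the 1 of smallest p), and 3 genes most like the SR mean. Other members named were chosen after their values were seen. Some genes are counted in the totals but not reported here. Alternatives covered the trend, the prior, weights, scaling, pseudocount, a minimum of reads, the libraries fitted, a replicate block and each library left out. The ratios of summed levels and their alternatives were added after seeing the data.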

Additional observations from a re-analysis of the deposited data

How the results depend on the processing

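The number of members called with LPS in wild type was 1. It was 0 with no mean-variance trend, 2 with the compared groups alone (Hnrnph1 and Prpf38a), 3 with voom precision weights (also Hnrnpa3) and 4 with library weights (also Sf3b1), and ran from 0 to 2 with each library left out. The number of members called was 0 without WT-Saline replicate 1, 2 or 3 or WT-LPS replicate 2 or 3, and 2 without KO-LPS replicate 1 or 3. Over all genes the former gave 796, 775, 794, 839 and 734 calls, and the latter 1427 and 1116. Without WT-LPS replicate 1 the 1 member called was Hnrnph1, not Prpf38a, with 740 calls over all genes. In KO-labelled libraries the number of members called was 0, against 1 (Hnrnph1) with library weights and 0 to 1 with each library left out. Calls there over all genes numbered 314 in the main fit and 904 with library weights. The other 4 comparisons gave 0 members under every alternative run. The cause was not tested, apart from the fewer libraries that leaving one out entails.

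Some fold changes of genes that were not called turned sign, all close to 0 or from few reads. Under median-of-ratios scaling Srsf10 in KO-labelled libraries was -0.015, and with libraries left out it ran from -0.347 to 0.289. The other reversals came with libraries left out, and the ranges were, in wild type, -0.204 to 0.091 for Hnrnpu (also 0.006), -0.409 to 0.563 for Sf3a2, -0.294 to 0.425 for Snrpb (also 0.079) and -1.546 to 0.231 for Snrpc (also 0.228). In KO-labelled libraries they were -0.023 to 0.186 for Hnrnpu, -0.403 to 0.008 for Prpf38b, -0.122 to 0.621 for Sf3a2, -1.549 to 0.143 for Sf3a1, -0.505 to 0.185 for Snrpb and -0.417 to 1.23 for Snrpc. The summed level of all 54 genes in KO-labelled libraries overlapped between saline and LPS by CPM, and did not by median-of-ratios scaling. In wild type that sum was 2665, 3025 and 2852 CPM with saline and 2553, 2195 and 2572 CPM with LPS. Those groups did not overlap on either scale, the ratio of means by CPM was 0.857, and the sum was not tested. Of all single genes, 14.3% were lower without overlap in that comparison. No ratio of summed levels moved by more than the spread between libraries.

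Same-numbered libraries of different groups did not deviate together (correlations from -0.066 to 0.040), so the numbers do not pair them. With the replicate block the member calls were 1 in wild type with LPS and 0 in the other comparisons. Over all genes the block gave 1086 calls with LPS in wild type and 336 in KO-labelled libraries. Of the other splicing genes named, the block ended the wild-type call of Usp39 (adjusted p = 0.0514) and brought calls for Clk1 (0.0496) and Pspc1 (0.0448) with LPS in KO-labelled libraries.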
